A study of Homo sapiens with 11 samples.

Results

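The genes described here are 10 members of the S100 family of calcium-binding proteins: S100A2, S100A3, S100A4, S100A6, S100A10, S100A11, S100A13, S100A14, S100A16 and S100P. They are 10 of 20033 protein-coding genes in the annotation. They were listed by name, but with earlier results of these data known. A ChIP-seq peak was assigned to a gene when its summit lay in the gene span or within 10 kb on either side, and that stretch is called the gene's window. Chromatin immunoprecipitation followed by sequencing was carried out in CFPAC1 and HPAF2, human lines of pancreatic ductal adenocarcinoma. Its 10 peak lists form 5 groups of 2 libraries each.

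MYRF, a transcription factor known for myelin genes, was mapped with a home-made antibody in the original CFPAC1 line, grown in IMDM, and in the original HPAF2 line, grown in RPMI. FOS, which pairs with JUN proteins to form AP-1, was mapped in a CFPAC1 clone isolated by dilution after infection with the empty lentiCRIPSv2 plasmid, as the labels spell it. H3K27ac, a histone acetylation found at promoters and enhancers in use, was mapped in this control clone and in a clone whose plasmid carried wt Cas9 and a guide RNA against MYRF. Each of the 2 clones is a single clone, so a difference in MYRF and any other difference between clones cannot be told apart. Peak lists cannot show the edit itself.

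S100 proteins are small proteins with paired EF-hand loops that bind calcium, and most work as dimers that grip a partner protein when calcium rises. Some are also released from cells and bind receptors such as AGER, the receptor for advanced glycation end products. Most of the family lies in a cluster on the long arm of human chromosome 1, beside the epidermal differentiation genes, and S100P lies alone on chromosome 4. Several members, among them S100P, S100A2, S100A4 and S100A6, are known for high levels in pancreatic cancer.

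The MYRF lists held 3702 to 4743 peaks, the FOS lists 29087 and 36349, and the H3K27ac lists 107586 to 116466, with no read counts and so no known depth. No 2 libraries of a group shared a peak of identical interval and fold enrichment. H3K27ac peaks covered 10.6 to 72.4% of the windows of 6 epithelial duct markers over the 4 libraries. KRT19 was the most covered of these, at 60.2 to 72.4%, and EPCAM the least, at 10.6 to 14.99%. The windows of endothelial and fibroblast markers were covered by at most 17.05%, which is above the values of EPCAM. Those of haematopoietic markers were covered by 3.4 to 13.8% and those of oligodendrocyte markers by at most 10.3%. The window of MYRF itself was covered by 17.9 to 28.1%, in both clones.

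The promoters of S100A2, S100A3 and S100A6 are shown first. Those of S100A2 and S100A3 are the ones in which the AP-1 motif was found, and a FOS peak reached into both. That of S100A6 is the one reached by a MYRF peak in both libraries of a line. They were chosen for these features and do not stand for the others: FOS peaks of both libraries also covered all 250 bases before the inner start of S100A16, which held no AP-1 motif, and a MYRF peak of CFPAC1 library 1 alone covered 72 of the 250 bases before S100A10. Each is the run of 250 bases before an annotated start, written 5′ to 3′ on the gene's own minus strand, from RefSeq on GRCh38.p14. The coordinates are chr1:153565845-153566094 for S100A2 (its outer start), chr1:153549259-153549508 for S100A3 and chr1:153535992-153536241 for S100A6. Capitals mark the AP-1 motif TGACTCA or its reverse complement TGAGTCA in the first 2. In S100A6 they mark the 114 bases that lay inside the MYRF peaks of both CFPAC1 libraries.
S100A2: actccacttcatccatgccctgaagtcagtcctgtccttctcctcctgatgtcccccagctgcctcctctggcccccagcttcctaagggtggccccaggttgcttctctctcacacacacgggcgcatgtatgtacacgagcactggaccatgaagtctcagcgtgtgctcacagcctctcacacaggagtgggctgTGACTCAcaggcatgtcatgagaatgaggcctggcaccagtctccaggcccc
S100A3: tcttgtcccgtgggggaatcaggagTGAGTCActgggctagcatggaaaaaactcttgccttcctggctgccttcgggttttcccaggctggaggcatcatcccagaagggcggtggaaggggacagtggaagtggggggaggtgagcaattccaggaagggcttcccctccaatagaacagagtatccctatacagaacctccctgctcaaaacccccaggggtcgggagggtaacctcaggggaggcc
S100A6: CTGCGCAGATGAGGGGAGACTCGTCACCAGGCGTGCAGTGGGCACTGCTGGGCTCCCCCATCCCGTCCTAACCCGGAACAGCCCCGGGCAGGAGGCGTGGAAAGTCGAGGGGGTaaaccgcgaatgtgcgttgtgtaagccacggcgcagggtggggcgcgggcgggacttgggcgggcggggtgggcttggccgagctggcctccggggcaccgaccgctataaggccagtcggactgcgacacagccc

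The AP-1 motif of the S100A2 promoter, bases -52 to -46 before the start, lay inside the FOS peaks of both libraries, 138 and 93 bp from their summits. That of the S100A3 promoter, bases -225 to -219, lay outside both FOS peaks, although these peaks covered 130 and 163 of the 250 bases. The S100A6 promoter held neither the AP-1 motif nor the MYRF motif CTGGNAC (reverse complement GTNCCAG), both searched on both strands. The AP-1 motif was found in 2 of the 14 windows of this length at the starts of the 10 genes (14.3%) and in 4.2% of 35116 such windows at all annotated starts. The MYRF motif was found in 8 of the 14 windows (57.1%), at S100A2, S100A11, S100A13, S100A14, S100A16 and S100P, against 15.4% of all windows. None of those 8 windows was reached by a MYRF peak in any library. A match describes these letters only and is not a binding site.

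MYRF peaks recurred at some of the S100 genes, FOS peaks at nearly all and H3K27ac at every one. In CFPAC1, 5 of the 10 genes had a MYRF summit in their window in both libraries (S100A2, S100A4, S100A6, S100A10 and S100P), beside 9.07% of all protein-coding genes. In HPAF2 the count was 4 of 10 (S100A2, S100A10, S100A13 and S100P), beside 8.43%. S100A2, S100A10 and S100P were counted in all 4 MYRF libraries, a state shared by 4.84% of all genes. FOS recurred at 9 of the 10 genes, all except S100A11, beside 43.7% of all genes. H3K27ac was present at 10 of 10 in the control clone and in the knockout clone, beside 76.4 and 76.3%.

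These counts overlap because windows overlap. The windows of S100A2, S100A3, S100A4 and S100A6 merge into 1 stretch of 51246 bp, and those of S100A13, S100A14 and S100A16 into another of 47479 bp, so S100A4 and S100A6 shared their only MYRF site. The 10 windows were also shorter than usual, with a median of 23896 bp against 44130 bp for all genes. When the peaks of both libraries also had to overlap each other, 4 genes remained in CFPAC1, beside 8.33% of all genes, and 3 in HPAF2, beside 8.02%. S100A10 was the gene lost from both lines, and 9 genes still had a FOS site, beside 43.1%. After merging overlapping peaks there were 11 MYRF sites at the S100 genes, of which 5 were found in both libraries of at least 1 line.

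**Figure D1:**
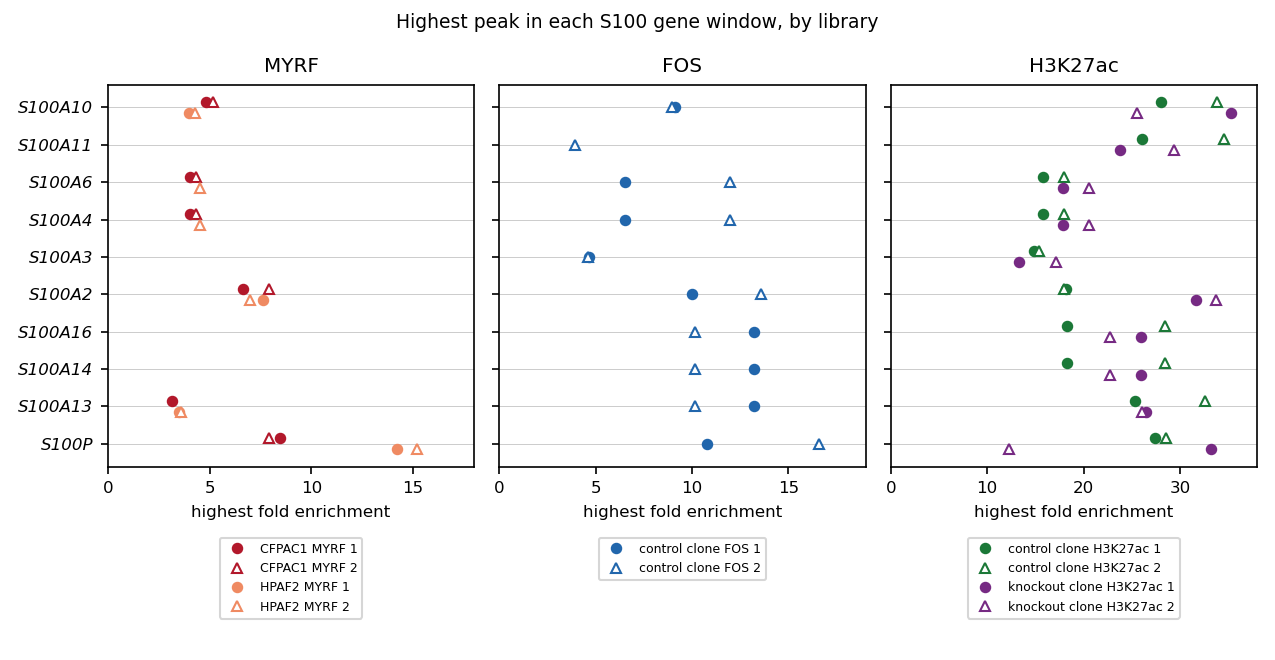
Highest fold enrichment of a MYRF, FOS or H3K27ac peak in the window of each S100 gene (horizontal axes, the authors' fold over background), with 1 marker per library and no marker where a library had no peak. S100P and S100A2 have the highest MYRF peaks in all 4 libraries, and S100A3, S100A11, S100A14 and S100A16 have none; S100A13, S100A14 and S100A16 share 1 FOS peak, and folds are to be compared within a library only.

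S100P carried the strongest MYRF site of the family. S100P is an S100 protein first known from placenta that binds ezrin and the receptor AGER. The site, placed by the median summit of its peaks, lay at -3639 bp from its start, negative meaning upstream (chr4:6689965-6690556, GRCh38, between genes). The authors' fold enrichment there was 8.44 and 7.94 in the CFPAC1 libraries and 14.2 and 15.2 in the HPAF2 libraries. These values stood at the 84.4 and 80.5 percentiles of all peaks in the CFPAC1 lists and at the 93.1 and 93.6 percentiles in the HPAF2 lists. Since fold enrichment is scaled within each library, the difference between lines is a difference in rank within lists and was not tested.

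No FOS peak overlapped this S100P site. The nearest FOS peak began 214 to 378 bp from the MYRF peaks, and the FOS summits lay 987 to 1131 bp from the MYRF summits. That FOS site, at -4693 bp from the start, had a fold of 10.8 and 16.6 in the 2 FOS libraries, at the 90.6 and 97.2 percentiles. It was the highest FOS peak at any of the 10 genes in library 2. A second, weaker MYRF site overlapped it in 1 library of each line, with a fold of 5.25 in CFPAC1 library 1 and 3.79 in HPAF2 library 2. The MYRF site and the FOS site upstream of S100P thus lay side by side, and H3K27ac peaks covered the summits of both in all 4 libraries.

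**Figure D2:**
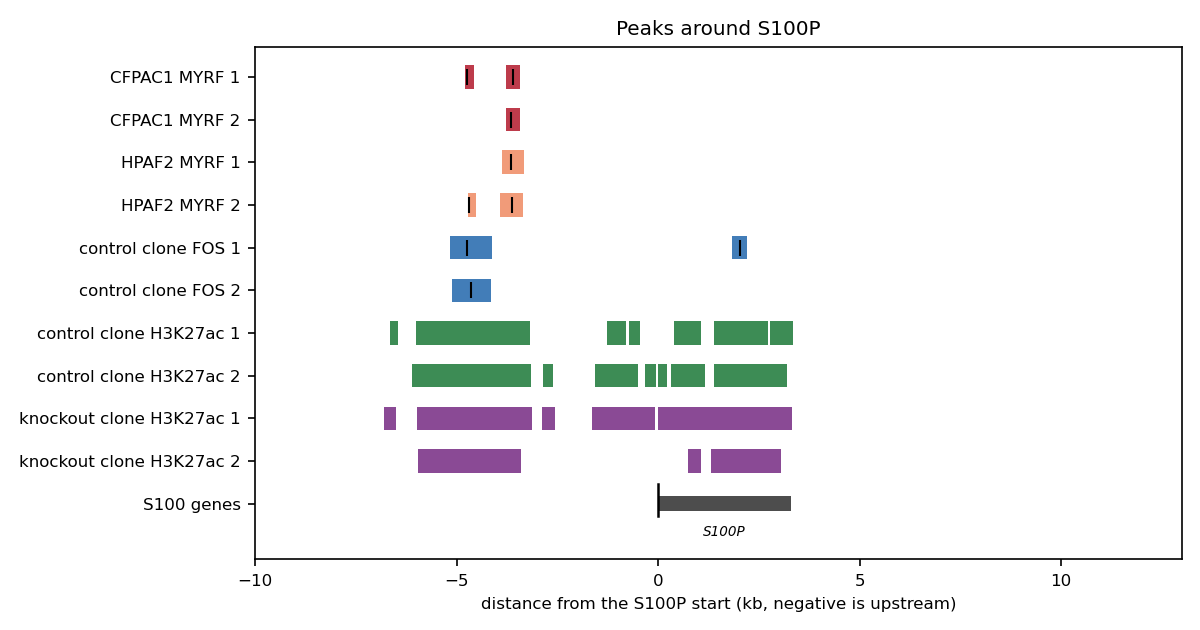
Peaks in the 10 libraries around S100P, by distance from its start in kb (negative is upstream), with boxes for peaks and black ticks for summits of MYRF and FOS peaks. The MYRF site at -3639 bp is present in all 4 MYRF libraries beside a FOS site, and a H3K27ac peak covers the start itself in knockout library 1 only, while peaks of control library 2 lie on either side of it.

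S100A2 was the only one of the 10 genes with more than 1 MYRF site in all 4 libraries. S100A2 is a mainly nuclear S100 protein of basal epithelial cells that binds p53. Its nearer site lay at -820 bp from the outer start (chr1:153566430-153566900), with a fold of 5.02 and 6.94 in CFPAC1 and 7.61 and 7.001 in HPAF2. Its farther site lay at -2105 bp (chr1:153567724-153568348), with a fold of 6.62 and 7.90 in CFPAC1 and 4.18 and 4.91 in HPAF2. In both CFPAC1 libraries the farther site was the higher, and in both HPAF2 libraries the nearer one.

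FOS peaks overlapped both S100A2 sites in both libraries, but their summits differed in position. At the farther site the FOS fold was 9.98 and 13.6, and the FOS summits lay 38 to 129 bp from the MYRF summits. At the nearer site the FOS peak had a fold of 8.62 and 8.20 and was centred on the gene's start, 779 to 958 bp from the MYRF summits. The AP-1 motif printed above lies under that FOS peak and not under the MYRF peak. Over the whole genome, 59.2% of the 4394 MYRF sites found in both libraries of a line were overlapped by FOS in both libraries, and 29.2% were found in all 4 MYRF libraries. At the S100 genes, 2 of 5 had FOS in both libraries, both at S100A2, and 3 of 5 were in all 4 MYRF libraries, at S100A2 and S100P.

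**Figure D3:**
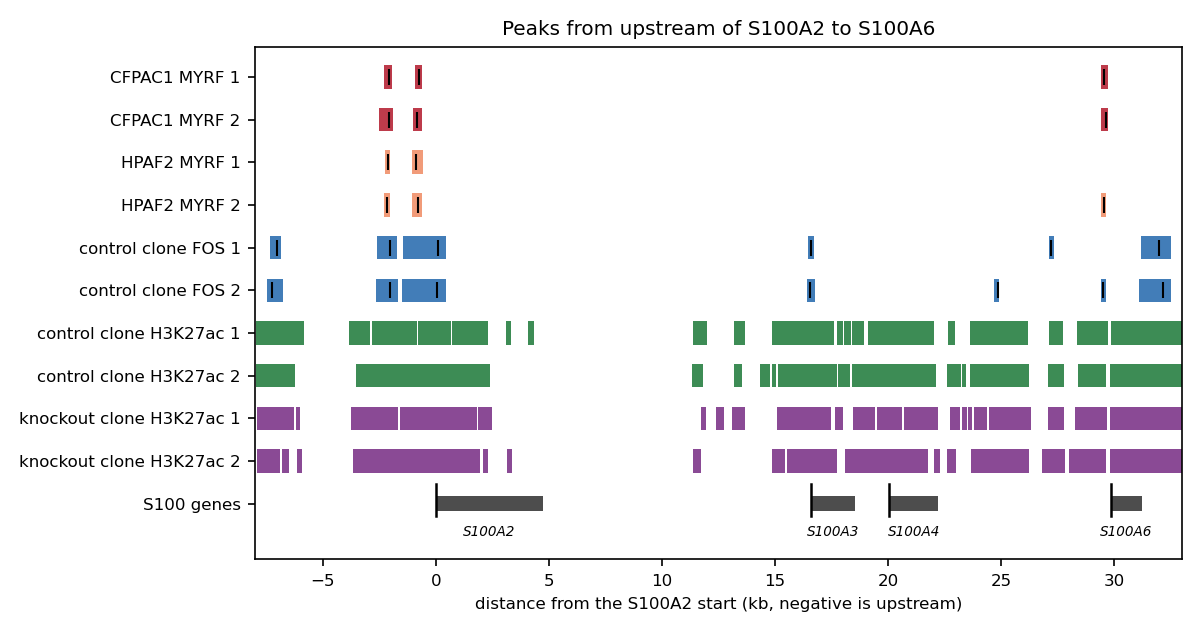
Peaks in the 10 libraries from 8 kb upstream of S100A2 to S100A6, by distance from the outer S100A2 start in kb (negative is upstream), with boxes for peaks and black ticks for summits of MYRF and FOS peaks. The MYRF sites at -820 and -2105 bp lie in the merged H3K27ac region over the S100A2 start, and a further MYRF site lies at -283 bp from the S100A6 start.

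S100A6 carried a weaker promoter site. S100A6, also called calcyclin, binds CACYBP, an adaptor of a ubiquitin ligase complex. The site lay at -283 bp from its start (chr1:153536124-153536449) and is the one shared with the window of S100A4, a binder of non-muscle myosin linked to metastasis. Its fold was 4.02 and 4.35 in CFPAC1, absent in HPAF2 library 1 and 4.501 in HPAF2 library 2. These values ranked low in their lists, at the 18.5, 22.98 and 28.6 percentiles. A FOS peak overlapped it in FOS library 2 only, with a fold of 4.49. The sequence of S100A6 had a GC content of 70.0%, against a median of 58.0% for all 35116 windows.

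S100A13 carried a site that 2 genes share. S100A13 is known for carrying FGF1 and IL1A out of cells by a non-classical route. The site lay 221 bp inside S100A13 from its outer start and 74 bp inside the start of CHTOP, an mRNA export factor (chr1:153634027-153634317). Its fold was 3.14 in CFPAC1 library 1, absent in CFPAC1 library 2, and 3.51 and 3.58 in HPAF2. These were near the bottom of the lists, at the 2.78, 7.05 and 7.77 percentiles, and no FOS peak overlapped the site. It also lay in the window of S100A1 and cannot be assigned to any 1 of these genes.

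S100A10 had MYRF peaks in every MYRF library and yet no MYRF site found in both libraries of a line. S100A10, also called p11, is the partner of ANXA2 at the plasma membrane and is the member that has lost calcium binding. The peak of CFPAC1 library 1 lay at -275 bp from the start with a fold of 4.83. Those of CFPAC1 library 2 lay 5284 and 1187 bp inside the gene and at -5311 bp, with folds of 4.72, 5.14 and 4.90. HPAF2 library 1 had a peak of fold 4.01 at 1256 bp, which overlapped the one at 1187 bp, and HPAF2 library 2 had a peak of fold 4.30 beyond the gene's far end, 20666 bp from the start.

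All 5 of these S100A10 sites, and the weaker S100P site, were overlapped by FOS peaks of both libraries. They were the 6 MYRF sites at the S100 genes that did not recur within a line. The share with FOS over all such sites in the genome was not computed, and the 59.2% given above is for recurring sites. Of the 6, 5 lay in the S100A10 window, of which FOS peaks covered 14.8 and 17.9% in the FOS libraries. The count is therefore not read as a trait of MYRF sites that do not recur. S100A10 had 6 FOS sites in both libraries, more than any other of the 10 genes, and the highest, 4358 bp inside the gene, had a fold of 9.13 and 8.97. The FOS site at the outer edge of the S100A10 window had its summits only 18 and 57 bp inside the limit, with folds of 8.82 and 7.23.

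**Figure D4:**
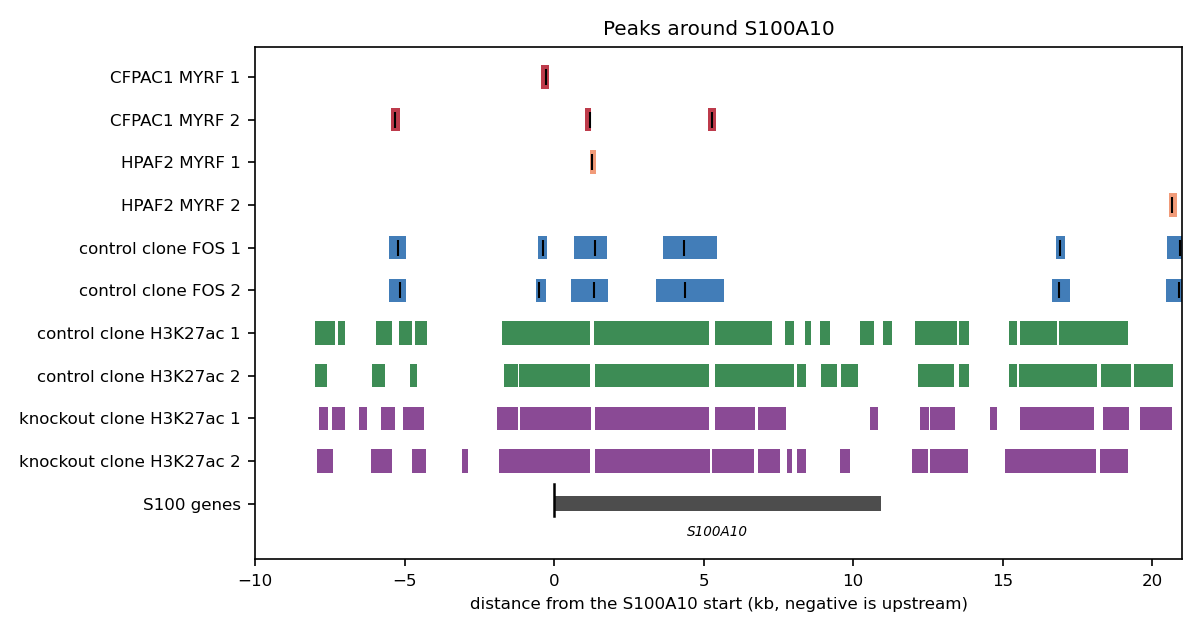
Peaks in the 10 libraries around S100A10, by distance from its start in kb (negative is upstream), with boxes for peaks and black ticks for summits of MYRF and FOS peaks. Each MYRF peak lies on a FOS site, and only the site of the overlapping peaks 1187 and 1256 bp inside the gene is present in 2 MYRF libraries, 1 of each line.

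FOS sites were more numerous than MYRF sites at these genes. There were 23 merged FOS sites, 16 of them in both libraries, and 8 of those 16 had no MYRF peak in any library. The highest FOS peak at S100A13, S100A14 and S100A16 was 1 shared site at the inner start of S100A16 (chr1:153608387-153609671). Its fold was 13.2 and 10.1, at the 95.1 and 87.4 percentiles. This is the peak named above that covered the whole stretch before that start, and no MYRF peak lay in the windows of S100A14 and S100A16. S100A14 and S100A16 are members found mainly in epithelia.

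The FOS peak of highest rank at S100A6 and S100A4 was a shared site 2211 bp from the S100A6 start (chr1:153533316-153534751), with a fold of 6.51 and 11.98 and no MYRF peak. At S100A3, a member known from the hair cuticle, the site over the start had a fold of 4.63 and 4.59. S100A11, a member that binds annexin ANXA1, had no FOS peak in library 1, and its FOS peaks of library 2 reached a fold of 3.91. It also had no MYRF peak in its window.

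The window limit mattered for S100A11. A site found in all 4 MYRF libraries lay 1554 bp beyond the upstream end of its window (chr1:152048133-152048854). Its fold was 5.88 and 5.16 in CFPAC1, 7.17 and 9.75 in HPAF2, and 9.15 and 10.7 in the FOS libraries. Another site beyond the limit lay 2629 bp past the S100P window (chr4:6709630-6709997), with a fold of 6.27 and 7.20 in CFPAC1 and 5.15 in HPAF2 library 1. A further site, 8455 bp past the S100A6 side of the cluster (chr1:153515978-153516341), was found in HPAF2 only, with a fold of 6.41 and 6.16.

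H3K27ac peaks covered a larger part of the S100 windows than of most gene windows. In the control clone a median of 39.8% of a window was covered, against 4.2% for all genes. S100A4 (70.5%), S100A10 (61.6%), S100A3 (55.04%) and S100A6 (54.3%) were the most covered, all above the 99 percentile of all genes, and S100A11 (29.3%) and S100P (29.5%) were the least, at the 95.8 and 95.9 percentiles. The 10 windows were shorter than the median window, as given above, and the part of window length in this difference was not tested. The widest merged region at these genes with peaks of all 4 libraries spanned 7435 bp over S100A4 and S100A3 (chr1:153543562-153550996). The next spanned 6309 bp over the start of S100A2 (chr1:153563388-153569696) and held both of its MYRF sites. Both widths join peaks of several libraries. The widest single peaks in the first were 2940 and 3716 bp in control libraries 1 and 2, and those in the second 2003 and 5950 bp. The regions over the S100A13 starts spanned 1689 and 2211 bp, at the 61.1 and 74.2 width percentiles of regions with peaks of all 4.

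The knockout clone was compared with the control clone by the length covered by H3K27ac peaks in each window, since peak lists hold no read counts. S100P had 6329 and 7420 bp covered in the control libraries and 8346 and 4623 bp in the knockout libraries. Knockout library 1 was the highest and knockout library 2 the lowest, so the groups overlapped. S100A2 had 9769 and 8953 bp in the control and 9334 and 7977 bp in the knockout. Here knockout library 1 lay between the control libraries and knockout library 2 below both.

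The other genes behaved alike. S100A10 had 19463 and 18635 bp in the control and 17583 and 18957 bp in the knockout, again with overlap. S100A6 had 11114 and 12126 bp against 11825 and 11955 bp, and S100A4 15080 and 16214 bp against 15226 and 15149 bp. In both of these the knockout values lay between those of the control libraries. S100A3 had 11493 and 12647 bp against 11638 and 11622 bp, and S100A11 had 6063 and 8276 bp against 8320 and 6447 bp. S100A13 had 10911 and 12072 bp against 12515 and 10930 bp. In S100A3 the knockout values lay between the control values, and in S100A11 and S100A13 knockout library 1 exceeded both control libraries. S100A14 had 8644 and 9824 bp against 11100 and 9127 bp, and S100A16 had 8531 and 9690 bp against 10773 and 8989 bp. In both of these knockout library 1 was the highest and knockout library 2 lay between the control values.

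No S100 gene had its groups apart: 0 of 10 were lower in both knockout libraries, beside 25.6% of the 14009 genes tested, and 0 of 10 were higher in both, beside 10.8%. Over the genome, the knockout lists covered 87.9 and 92.9 Mb, less than the 101 and 95.2 Mb of the control lists. The part of this in the shares of all genes, and of sites and regions below, was not tested. Limma on the log2 of covered length plus 500 bp, with Benjamini-Hochberg adjustment over 14009 genes, called no S100 gene and 0% of all genes. At an unadjusted p under 0.05 it had 854 genes, 6.1%, and 0 of the 10. The log2 difference, knockout minus control, was -0.11 with a standard error of 0.13 for S100A2 (95% interval -0.46 to 0.24, limma adjusted p = 0.92) and -0.13 with a standard error of 0.29 for S100P (-0.90 to 0.64, limma adjusted p = 0.96). Leaving out knockout library 1 gave -0.52 for S100P and leaving out knockout library 2 gave 0.27, so its sign rests on 1 library. The other 8 genes lay between -0.06 and 0.12, with adjusted p from 0.92 to 0.98. The median was -0.01 over the 10 genes and -0.05 over all genes. The intervals are wide, so these values do not show that covered length was equal in the clones, and with 2 libraries against 2 an exact two-sided permutation test cannot go below 0.33.

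**Figure D5:**
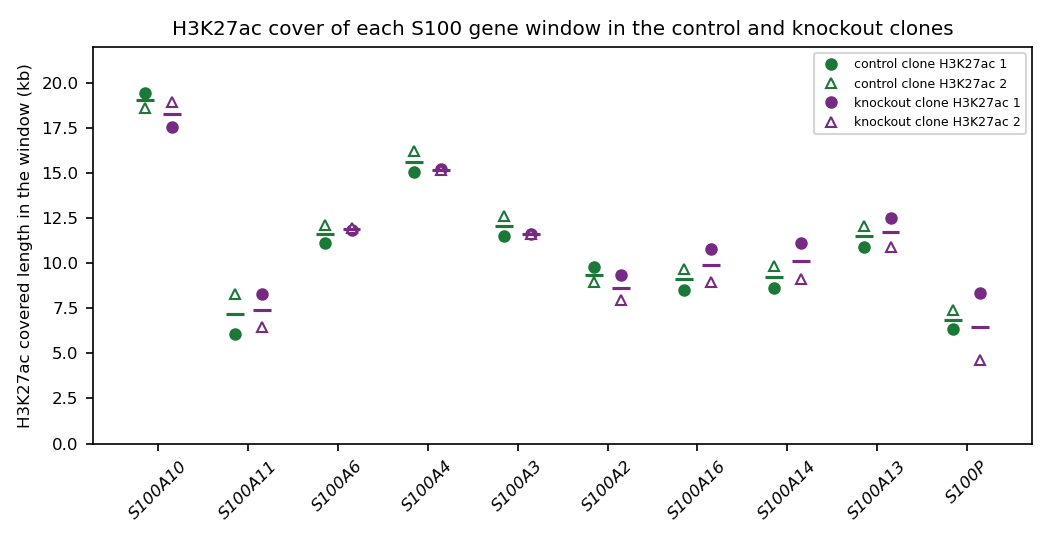
Length covered by H3K27ac peaks in the window of each S100 gene, in kb, for the 2 control and 2 knockout libraries, with horizontal bars at group means. The groups overlap at all 10 genes, and the knockout libraries of S100P stand at 8346 and 4623 bp.

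H3K27ac around the MYRF sites was counted in the same way, in 2000 bp centred on the median summit of each site. For the shares over all CFPAC1 MYRF sites, the 2000 bp were centred on the middle of the merged site instead. Around the S100P site 1457 and 1708 bp were covered in the control and 1767 and 1241 bp in the knockout. Around the nearer S100A2 site 1949 and 2000 bp were covered in the control and 1913 and 2000 bp in the knockout. The values of the farther S100A2 site were 1923 and 2000 bp against 1913 and 2000 bp. The S100A6 site had 1879 and 1859 bp against 1880 and 1819 bp, and the S100A13 site 1666 and 1790 bp against 1641 and 1701 bp. At none of the 5 sites were both knockout libraries below both control libraries, a state seen at 18.1% of the 2789 MYRF sites found in both CFPAC1 libraries, which include 4 of the 5. The opposite state, seen at 6.53%, could not arise at the S100A2 sites, where control library 2 was covered over all 2000 bp. The other sites were also largely covered in the control, so this measure had little room to rise, and nothing is read from the absence of higher values.

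Of 56 merged H3K27ac regions with a summit at the S100 genes, 28 were present in all 4 libraries, against 40.2% of 134465 regions in the genome. One region, inside S100A10 (chr1:151984401-151984983), was present in both control libraries, with a fold of 3.63 and 4.001, and in neither knockout library, against 3.51% of all regions. No region was gained, against 1.7%. At the S100P start, the 250 bases upstream were covered by 0 and 192 bases in the control and 169 and 0 bases in the knockout, so the libraries of each clone disagreed there.

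H3K27ac peak height was ranked within each list. The highest peak at S100A2 had a fold of 18.1 and 18.02 in the control libraries, at the 96.7 and 94.3 percentiles, and 31.6 and 33.7 in the knockout libraries, at the 99.84 and 99.96 percentiles. The highest at S100P had a fold of 27.4 and 28.6 in the control and 33.2 and 12.3 in the knockout, the last at the 88.2 percentile. Ranks from separate lists do not measure a change between clones, and these were not tested. At S100A10, the fold was 28.1 and 33.8 in the control and 35.3 and 25.6 in the knockout. At S100A11 it was 26.1 and 34.5 against 23.8 and 29.4, and at S100A13 25.3 and 32.6 against 26.5 and 26.1. S100A14 and S100A16 shared their highest peaks, with 18.3 and 28.4 against 25.9 and 22.8. S100A4 and S100A6 shared theirs as well, with 15.8 and 17.99 against 17.9 and 20.5. S100A3 had the lowest values, 14.9 and 15.3 against 13.3 and 17.2, apart from S100P in knockout library 2. In every library the highest peak of each of the 10 genes stood at the 87.9 percentile of its list or higher.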

How the data were processed

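The S100 genes and the other gene lists were chosen with earlier results of these data known. The genome build was GRCh38 (hg38), and the tools named were MACS2 2.1.0.20150731, SAMtools, Bowtie2 2.2.6 and Trimmomatic 0.38, per the submitters' processing notes. The deposited lists give each peak a summit offset, a fold enrichment (a ratio over background), a −log10 p-value and −log10 q-value, and a score. The control behind the CFPAC1 peaks is not given in the sources used here. Depth is unknown, since reads are not counted in the lists, and fold enrichment, the authors' own value, was used only within a list. The labels do not say that replicates were separate cultures, so p-values measure the spread between these libraries. An HPAF2 input was not analysed here.

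Peaks overlapping by at least 1 bp were merged into sites or regions. A region in both control and no knockout libraries was called lost, and the opposite gained. Covered length per window was tested with limma 3.58.1 (R 4.3.3; trend, two-sided, Benjamini-Hochberg, threshold 0.05) over genes with a mean of at least 1000 bp, with a pseudocount of 500 bp, after a run on simulated data. Counting and plots used Python 3.11.15, numpy 2.4.6, pandas 2.3.3 and matplotlib 3.10.9. Genes and promoters came from RefSeq tables (GRCh38.p14); all 10 genes were found in both. Named were all 10 genes, each MYRF site in both libraries of a line, the highest FOS and H3K27ac peaks per gene, each lost or gained region, genes of set lists as counts with up to 4 examples, and, for the genes with MYRF in both libraries of a line, the 3 genes of most similar profile. Other MYRF, FOS and outside sites, further S100 genes beyond 4, and the partners of named S100 proteins were chosen after their values were seen. Alternatives were windows of 5 and 50 kb, a −log10 q of at least 10, other pseudocounts, filters, scaling and merging, a replicate block and leaving out each library.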

Additional observations from a re-analysis of the deposited data

How the results depend on the processing

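Peak lists limit these results to presence, rank and covered length, and 2 libraries a group leave weak sites uncertain. Of the alternatives, 48 values of the main counts stayed within 1.5 times and 19 did not. With windows of 50 kb, 9 S100 genes had MYRF in both CFPAC1 libraries and 10 in both HPAF2 libraries, and 8 MYRF sites recurred. With a −log10 q of at least 10 these were 2, 2 and 3, with 1 site in all 4 libraries, and 0 regions were lost. Merging across gaps of up to 500 bp also left 0 lost. The shares of all genes at 50 kb and at the stricter q were not computed. These gene counts therefore cannot be set beside the shares given for 10 kb. With summits within 200 bp, 1 recurring MYRF site had FOS in both libraries. With 1 library left per group, presence in that library sufficed: 8 to 10 MYRF sites counted, 5 to 8 with FOS, 9 to 10 regions were lost and 3 to 15 gained.

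Without the filter on covered length, limma called 17 of all genes, 9 higher and 8 lower, and none of the 10. Among the S100 genes the log2 difference kept its sign in 100 values and changed it in 20, never past the threshold; the cause was not tested. At 50 kb it was 0.01 for S100A2, -0.04 for S100A6 and -0.00 for S100A11. At a −log10 q of at least 10 it was 0.01 for S100A3, 0.00 for S100A4, -0.01 for S100A6 and 0.27 for S100P. Scaled to total covered length, which moved the median of all genes from -0.05 to 0.05, it was 0.06 for S100A3, 0.07 for S100A4 and 0.05 for S100A10. With each library left out in turn, where the lone library of a clone is assumed to vary like the other clone, it ranged from -0.12 to 0.02 for S100A3, -0.09 to 0.01 for S100A4, -0.03 to 0.09 for S100A6, -0.17 to 0.25 for S100A11, -0.07 to 0.12 for S100A13, -0.01 to 0.26 for S100A14, -0.02 to 0.23 for S100A16 and -0.52 to 0.27 for S100P.

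The replicate block called 0 genes, with 659 at an unadjusted p under 0.05 against 854 without it, and 0 S100 genes. Same-numbered libraries of the clones had deviations that correlated at -0.19 over 14009 genes. With only 2 pairs, and with total covered length differing between libraries, this value cannot decide whether the libraries were paired. With the numbers crossed, an alternative added after seeing the data, limma called 0 genes, with 1236 at an unadjusted p under 0.05.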

Other observations

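The S100 genes known from myeloid cells and skin had no peaks at all. S100A8, S100A9 and S100A12, the calgranulins, and S100A7 and S100A7A, the psoriasins, had no MYRF, FOS or H3K27ac peak in their windows in any of the 10 libraries, although they lie on chromosome 1 between S100A11 and S100A6. S100B and S100G also had none. Of 12 further genes listed with S100 in their symbols, 11 were found. Of these, 4 had H3K27ac in both control libraries: S100A1, S100A5, S100Z and S100PBP. S100PBP is named as a binding protein of S100P and is not a member of the family. MYRF recurred in CFPAC1 at S100A5, which shares peaks with S100A6, and in HPAF2 at S100A1. The S100A1 peak is the one described above for S100A13 and CHTOP, at the 7.05 and 7.77 percentiles. S100A1 also shares its highest H3K27ac peaks with S100A13. FOS recurred at 2, S100A5 and S100Z.

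The epidermal differentiation genes of the same chromosome arm had a recurring MYRF peak at 0 of 16 in either line, where 9.07 and 8.43% of all genes had one, so a count of 0 lies near that share. FOS recurred at 5 of 16, among them SPRR1B, RPTN, SPRR3 and IVL, beside 43.7% of all genes. H3K27ac recurred at 3 of 16 in the control clone and 2 of 16 in the knockout clone, beside 76.4 and 76.3%. The shares of all genes given here also stand behind the counts of the other lists. Among 14 genes for partners and receptors of S100 proteins, MYRF recurred at 5 in each line, FOS at 9 and H3K27ac at 14. Of those counted for MYRF in each line, ANXA2 and MYH9 had windows longer than the median of 44130 bp for all genes. CACYBP had a shorter one, and the part of window length in these counts was not tested. ANXA2, the partner of S100A10, had a highest MYRF fold of 10.8 and 7.01 in the CFPAC1 libraries and of 4.72 and 5.37 in those of HPAF2. For MYH9, the myosin bound by S100A4, the CFPAC1 values were 11.3 and 11.8 and the HPAF2 values 7.21 and 6.46. For CACYBP, the partner of S100A6, the CFPAC1 values were 5.04 and 7.38 and the HPAF2 values 5.77 and 5.001. All 3 were among the genes with MYRF in all 4 libraries. Since fold enrichment is scaled within each library, these folds do not measure a difference between the lines, which was not tested. Of 16 other neighbours of the cluster, MYRF recurred at 2 in CFPAC1 and 3 in HPAF2, FOS at 7 and H3K27ac at 15.

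Likeness to other genes was the mean absolute difference, over the 10 libraries, of the percentile of the highest peak in the window, as a description. Nearest to S100A2 were LIPH (1.95 percentile points), AOPEP (3.37) and LTBP2 (3.76). Nearest to S100P were INF2 (3.35), CAMK1D (3.45) and LPP (3.52). Nearest to S100A10 were L3MBTL1 (4.42), GSDMC (4.75) and TSPAN14 (5.01). Nearest to S100A13 were HNRNPL (2.34), ZDHHC7 (2.34) and MSL2 (2.39). HNRNPL and MSL2 had no MYRF peak in any library, and ZDHHC7 had none in CFPAC1. A window without a peak counted as 0, close to the low MYRF percentiles of S100A13. Likeness to S100A13 is therefore mainly one of FOS and H3K27ac ranks. S100A4 and S100A6, which share their highest peaks, were nearest to NOC2L, KLHL17 and PLEKHN1, neighbours of each other, at 5.48 each.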
